A study of Mus musculus with 12 samples.

Results

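The genes described here are the replication-dependent histone genes of the mouse, which encode the core histones H2A, H2B, H3 and H4 and the linker histone H1. They were chosen by symbol, as every row whose name begins with Hist1h, Hist2h, Hist3h or Hist4h, which gave 64 of the 24091 genes in the table. The class was read from the symbol, giving 6 H1, 17 H2A, 18 H2B, 10 H3 and 13 H4 genes. Of the 64 genes, 52 lie on chromosome 13, 8 on chromosome 3, 3 on chromosome 11 and 1 on chromosome 6. RefSeq lists 2 of them, Hist1h2al and Hist3h2bb-ps, as transcribed pseudogenes.

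RNA sequencing was performed on 12 bulk tissue samples in 4 groups of 3 mice. Medulloblastoma and adjacent cerebellum labelled normal came from the same 3 Brca2-mut;Trp53-mut mice (GB344, GB359 and GB370), and control cerebellum came from 3 Brca2-mut;Trp53-WT mice (GB361, GB508 and GB512, termed Brca2-mut controls) and 3 Brca2-WT;Trp53-mut mice (GB517, GB519 and GB520, termed Trp53-mut controls). In this model a Cre transgene under the human GFAP promoter removes exons of Brca2 in the developing central nervous system, and Trp53 is knocked out in the whole animal. Animals were taken when a tumor formed or a humane endpoint was reached, the study calls the controls age-matched, no age is given in the labels, and no group is wild type at both loci. Whether the Trp53-mut controls carry Cre is not stated in the sources used here.

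Values are in TPM, a share of all transcripts corrected for transcript length, which keeps no read depth, so no counting interval can be given for any of them. Brca2 was listed at 8.22 to 14.6 TPM in the tumors and 3.24 to 4.40 TPM in the controls, and Trp53 at 124 to 131 TPM in the tumors, 33.1 to 37.2 TPM in the Brca2-mut controls and 47.1 to 49.4 TPM in the Trp53-mut controls. These totals include exons outside the altered parts and do not check the genotypes. Purkinje cell markers summed to 87.9 to 382 TPM in the tumors and 5596 to 9308 TPM in the controls, whereas 8 markers of granule cell progenitors and Hedgehog-type tumors summed to 1993 to 2312 TPM in the tumors and 110 to 130 TPM in the controls. The 3 adjacent samples were not alike. Those of GB344 and GB359 summed to 682 and 636 TPM for the same 8 markers and that of GB370 to 152 TPM, so results from adjacent cerebellum are given with and without GB370. Among the controls GB512 stood apart, with Top2a, the topoisomerase of dividing cells, at 8.42 TPM against 0.277 to 0.686 TPM in the other 5. In bulk tissue, fewer cells of a type and less RNA per cell cannot be told apart.

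Cells make most of their histone protein during S phase, when new DNA has to be packed into nucleosomes. Transcripts of the replication-dependent genes do not normally end in a poly(A) tail. They end just after a short stem-loop that is bound by the stem-loop binding protein Slbp, and they are degraded when S phase ends. Some of the same genes are also known to give longer polyadenylated transcripts in cells that have left the cycle. The study's RNA-seq methods describe poly(A) selection, whereas the labels of these libraries name the library kit and no selection step, so which step was used on these 12 libraries could not be settled. Under poly(A) selection a TPM of these genes is a measure of the transcripts that were carried through and not of all histone mRNA.

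The stem-loop is shown first because it defines the family and because its place in the gene model is used to group the members below. The letters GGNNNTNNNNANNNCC with 6 paired stem bases were found in a GENCODE transcript of 42 of the 64 genes. They were found in 2.28% of the 141767 transcripts searched. For the histone genes a transcript with the letters was preferred where a gene had several, a choice not made for the 2.28%. In the following sequences, taken from the GENCODE transcripts of build GRCm38, capitals mark the 16 bases of the stem-loop.
Hist1h2ao: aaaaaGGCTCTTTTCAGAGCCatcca
Hist1h2ag: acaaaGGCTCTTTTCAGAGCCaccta
Hist3h2ba: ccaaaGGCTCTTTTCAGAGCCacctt
Hist1h1c: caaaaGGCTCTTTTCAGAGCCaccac
Hist1h2bk: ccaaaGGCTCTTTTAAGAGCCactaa
Hist1h3c: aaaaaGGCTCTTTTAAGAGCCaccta
Hist1h3g: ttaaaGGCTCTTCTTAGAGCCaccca
Hist1h4b: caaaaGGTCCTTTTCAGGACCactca
Hist1h4h: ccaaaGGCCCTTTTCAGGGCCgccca
Hist1h4i: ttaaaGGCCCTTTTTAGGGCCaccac
The first form, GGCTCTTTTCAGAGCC, was held by 22 genes of the H1, H2A, H2B and H3 classes and by no H4 gene. The form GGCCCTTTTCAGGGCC was held by 7 genes, all of them H4, and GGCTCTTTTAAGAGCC by 6 genes. Hist1h2ao and Hist3h2ba carry the same 16 bases, although the first had the largest rise of the 64 genes on the log2(TPM + 1) scale and the second was level.

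Gene models were divided by what follows these letters. In 21 genes the model ended within 100 nt of the stem-loop, as in Hist1h2ao, where 31 nt follow it. In another 21 the model ran on, by 169 nt in Hist3h2ba and 840 nt in Hist1h1c, and in 22 the letters were not found in the model. Many of these 22 models are short, such as Hist1h2ai at 393 nt and Hist1h2bl at 381 nt, and may stop before the stem-loop. Letters missing from a model therefore do not show that the gene lacks a stem-loop. The deposited values were made with another annotation, and its models may differ from these.

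The copies are so alike that short reads cannot always be assigned. In the GENCODE transcripts the median gene had 41.3% of its 31-base words to itself, and 11 genes had under 10%. Hist1h2ao had 6.2% to itself and shared 93.8% with Hist1h2ap, which is not analysed here, so its value may hold reads of either gene. Hist1h4m and Hist1h4n, which share 85.2% of the words of Hist1h4n, gave 13.8 and 0 TPM in the tumor of GB344, 19 and 0 TPM in that of GB359 and 8.13 and 7.55 TPM in that of GB370. Values of single copies are therefore uncertain, and class sums are given beside them.

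Promoters are shown for 4 genes, a divergent gene that rose, the gene with the highest tumor level, an H4 gene that rose and a gene that was level. Capitals mark the letters CCAAT, the box bound by NF-Y, and the letters TATAAA, known from core promoters. They also mark the octamer ATTTGCAT, bound by Oct1, and the letters TTTCGCG, part of E2F-type sites. All were searched on both strands, and a match on the other strand is printed as its reverse complement. Matches were marked and counted at any place in the sequence, so a TATAAA need not be a core promoter element of the gene. The windows run from 250 bases before to 50 after the RefSeq start, in GRCm38.p6. They are, in order, Hist1h2bk at chr13:22035571-22035870 on the plus strand, Hist1h2ao at chr13:21810117-21810416 on the plus strand, Hist1h4i at chr13:22041313-22041612 on the minus strand and Hist3h2ba at chr11:58948661-58948960 on the plus strand.
Hist1h2bk: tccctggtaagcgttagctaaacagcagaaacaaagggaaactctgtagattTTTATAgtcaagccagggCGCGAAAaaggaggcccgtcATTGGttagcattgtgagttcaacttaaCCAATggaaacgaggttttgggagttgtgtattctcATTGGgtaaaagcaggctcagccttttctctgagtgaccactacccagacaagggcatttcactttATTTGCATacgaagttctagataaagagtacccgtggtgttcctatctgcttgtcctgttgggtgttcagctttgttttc
Hist1h2ao: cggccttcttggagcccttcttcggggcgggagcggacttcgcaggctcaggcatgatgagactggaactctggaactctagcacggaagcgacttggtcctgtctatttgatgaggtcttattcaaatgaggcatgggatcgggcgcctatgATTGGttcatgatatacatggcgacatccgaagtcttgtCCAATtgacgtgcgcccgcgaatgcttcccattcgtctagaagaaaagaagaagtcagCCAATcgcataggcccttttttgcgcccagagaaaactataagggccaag
Hist1h4i: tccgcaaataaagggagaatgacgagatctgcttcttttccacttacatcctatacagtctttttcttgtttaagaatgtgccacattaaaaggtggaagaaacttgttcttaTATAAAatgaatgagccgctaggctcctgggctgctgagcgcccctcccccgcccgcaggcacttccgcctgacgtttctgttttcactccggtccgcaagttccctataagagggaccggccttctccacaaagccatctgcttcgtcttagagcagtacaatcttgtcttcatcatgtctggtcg
Hist3h2ba: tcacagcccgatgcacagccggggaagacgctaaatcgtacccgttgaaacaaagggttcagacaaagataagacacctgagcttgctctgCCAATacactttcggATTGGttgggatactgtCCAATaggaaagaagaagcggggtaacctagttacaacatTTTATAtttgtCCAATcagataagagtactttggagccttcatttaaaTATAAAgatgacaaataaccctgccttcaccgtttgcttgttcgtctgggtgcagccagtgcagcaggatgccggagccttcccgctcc
A promoter was found for 57 of the 64 genes. CCAAT was present in 84.2% of them against 37.9% of the 27025 promoters of all genes, in 100% of the H1, H2A, H2B and H3 promoters and in 25% of the H4 promoters. ATTTGCAT was present in 43.8% of H2A and 40.0% of H2B promoters, in none of the other classes and in 1.8% of all promoters. TTTCGCG was present in 50% of H2A and 33.3% of H2B promoters, in none of the other classes and in 0.8% of all promoters. TATAAA was present in 57.9% of the promoters of these genes and 14.2% of all. Windows of divergent neighbours overlap and share their matches.

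Across the 12 samples the 64 genes covered a wide range of levels. Hist1h2ba, a testis-type H2B gene, was listed at 0 in every sample, 22 genes reached 1 TPM in every sample and 61 reached it in at least 1. In the 6 controls 33 genes averaged under 1 TPM and only 10 averaged 10 TPM or more. The map of all 64 genes by sample shows these few genes as bright rows in every column. Many of the rest are dark in the controls and lighter in the tumors, while others, such as Hist2h2be, Hist2h4 and Hist1h2bn, lie at like levels in both.

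**Figure D1:**
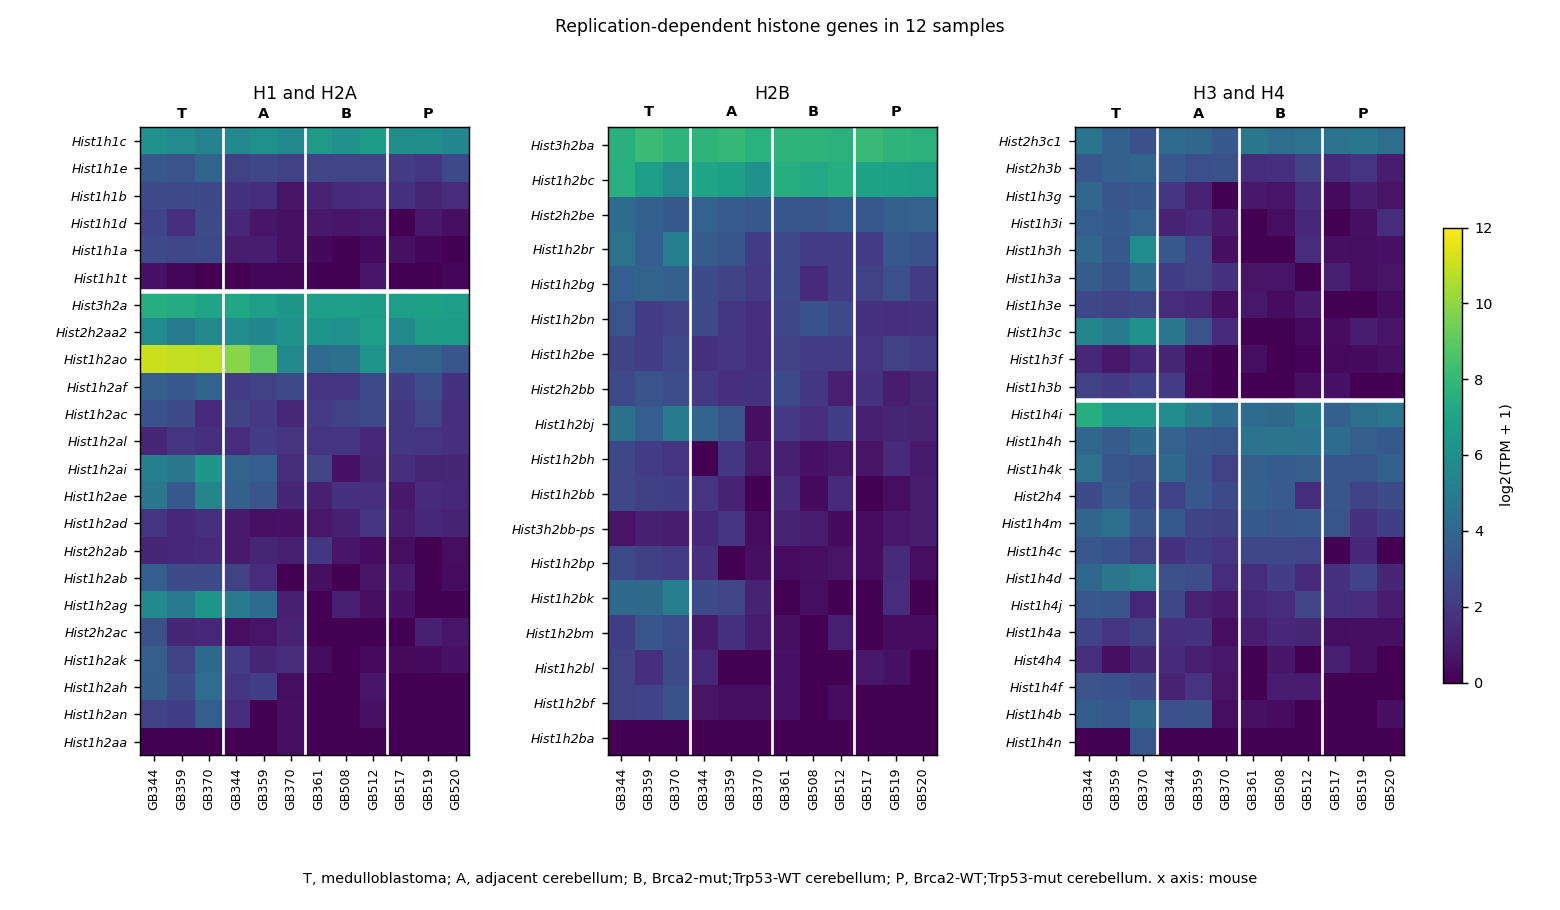
Levels of the 64 genes (rows, by class and by control mean) in the 12 samples (columns, by mouse), as log2(TPM + 1) on the color scale, for medulloblastoma (T), adjacent cerebellum (A), Brca2-mut controls (B) and Trp53-mut controls (P). Hist3h2ba, Hist1h2bc, Hist3h2a and Hist2h2aa2 are bright in every column, and Hist1h2ao reaches 1818 to 2133 TPM in the tumors.

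Summed by class, the tumors held more H2A, H3 and H4 transcript than the controls, while H1 and H2B were near level. The H2A sum was 2220 to 2550 TPM in the tumors and 183 to 290 TPM in the controls, a ratio of means of 10.4. Hist1h2ao made up 83.5% of the H2A sum in the tumors and 10.7% in the controls, and without it the H2A sums were 300.4 to 446 TPM and 171 to 223 TPM. The H3 sum was 96.9 to 190 TPM in the tumors and 22.5 to 32.7 TPM in the controls, a ratio of 5.06. The H4 sum was 196 to 294 TPM in the tumors and 53.9 to 86.2 TPM in the controls, a ratio of 3.25. All 3 tumors lay above all 6 controls in each of these classes. H2B sums were 444 to 511 TPM and 349 to 438 TPM, with a ratio of 1.21 and the lowest tumor just above the highest control, and H1 sums of 69.5 to 92.2 TPM in the tumors lay inside the control range of 53.3 to 104 TPM. The sum over all 64 genes averaged 3278 ± 269 TPM (SD, n = 3) in the tumors and 800.5 ± 81.7 TPM (SD, n = 6) in the controls, and 1321 and 776 TPM without Hist1h2ao.

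**Figure D2:**
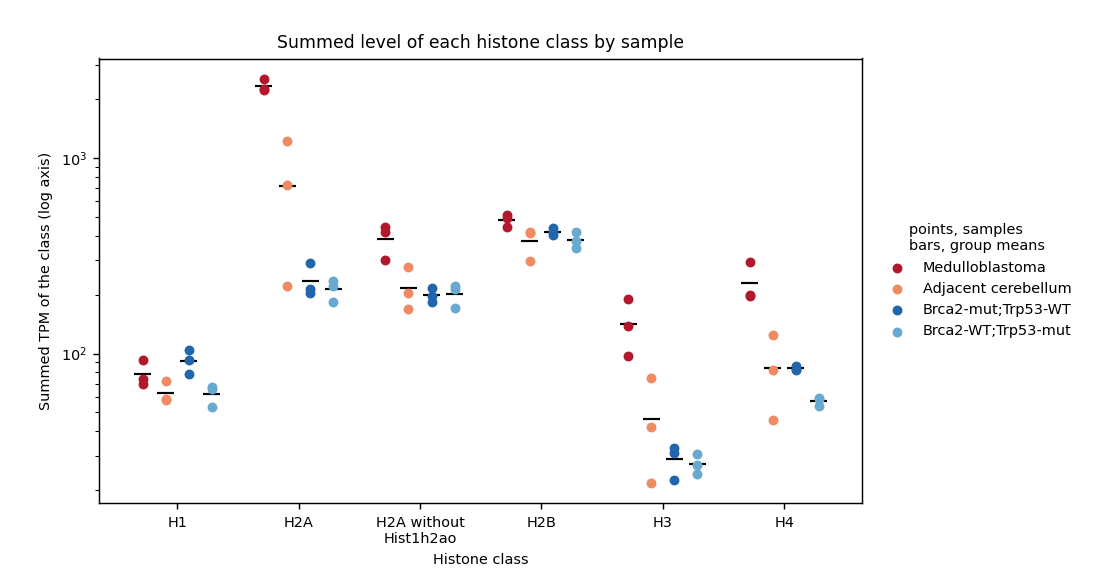
Summed TPM of each histone class (x axis) on a log y axis, with a point per sample colored by group and a bar at the group mean, and H2A shown also without Hist1h2ao. The tumors lie well above every control for H2A, H3 and H4 and barely so for H2B, and the H1 points of the tumors and controls overlap.

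The comparison of tumor with the 6 control cerebella asks which of these genes differ between medulloblastoma and non-tumor tissue. Of all 64 genes, 56 had a higher mean in the tumors than in the controls, and for 39 every tumor exceeded every control, against 23.6% of the 21205 genes with any value in these samples. For no gene did every tumor lie below every control. A limma test of log2(TPM + 1) was made on the genes that reached 1 TPM in 3 or more of the 9 samples, and a gene was called when its adjusted p lay below 0.01 and its log2 value changed by 1 or more. Of the 58 histone genes that passed this filter 38 were called higher, 0 were called lower and 20 were not called, where 14.4% of the 16241 genes tested were called higher and 21.5% lower. The filter lets in genes through the tumors, and 27 of the 58 reached 1 TPM in fewer than 3 controls. With no filter 37 of 62 were called higher and 0 lower, with a background of 11% called higher. Hist1h1t, Hist1h2aa, Hist1h2ba, Hist1h3f, Hist1h4n and Hist3h2bb-ps were not tested, the first 3 of which are testis-type genes. Fold changes are on the log2(TPM + 1) scale, which understates the change of genes near 0. The median log2 fold change over all genes tested was -0.11 as deposited, -0.01 after median-of-ratios scaling and 0.04 after quantile normalization, and 38 histone genes were called higher and 0 lower in each.

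H1 genes encode the linker histones that bind the DNA entering and leaving the nucleosome, and 4 of the 5 tested rose. Hist1h1c, the most abundant H1 gene here, was listed at 67.1, 54.2 and 39.8 TPM in the tumors of GB344, GB359 and GB370, at 86.2, 71.1 and 95.5 TPM in the Brca2-mut controls and at 59.5, 62.1 and 45.5 TPM in the Trp53-mut controls. The groups overlapped, with a log2 difference of -0.37 ± 0.23 (SE) and an adjusted p of 0.178. Hist1h1e was listed at 8.94, 7.30 and 13.8 TPM in the tumors, 4.61, 4.62 and 4.76 TPM in the Brca2-mut controls and 3.30, 2.75 and 5.41 TPM in the Trp53-mut controls. Every tumor exceeded every control, and the rise of 1.05 ± 0.22 lay just past the fold minimum, at an adjusted p of 0.00152. It fell under that minimum in 4 of its alternatives, with values down to 0.82. Hist1h1a, Hist1h1b and Hist1h1d rose by 2.40, 1.28 and 1.65 from control means near or under 2 TPM.

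H2A genes encode the core histone that carries the acidic patch of the nucleosome, and 10 of the 16 tested rose. Hist1h2ao was listed at 2133, 1920 and 1818 TPM in the tumors, 17.2, 20.4 and 73.4 TPM in the Brca2-mut controls and 12.7, 13.2 and 7.86 TPM in the Trp53-mut controls. The lowest tumor was far above the highest control, GB512, and the gene ranked 8 of 16241 by size of rise. Hist1h2ag was listed at 52.7, 28.6 and 74.1 TPM in the tumors, at 0, 1.0 and 0.414 TPM in the Brca2-mut controls and at 0.502, 0 and 0 TPM in the Trp53-mut controls. It rose by 5.27 ± 0.32 at an adjusted p of 1.60e-07.

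Hist1h2ai was listed at 35.2, 26.3 and 78.2 TPM in the tumors, 4.76, 0.496 and 1.42 TPM in the Brca2-mut controls and 2.05, 1.36 and 1.45 TPM in the Trp53-mut controls, a rise of 4.0 ± 0.42 at an adjusted p of 9.56e-06. Hist1h2ah was listed at 10.6, 5.64 and 18.4 TPM in the tumors and at 0 in 5 controls, with 0.668 TPM in GB512, a rise of 3.4 ± 0.31 at an adjusted p of 3.13e-06. For both genes, and for Hist1h2ag, the tumor of GB370 was the highest and that of GB359 the lowest. Hist3h2a, an H2A gene of the chromosome 11 cluster, was listed at 177, 165 and 127 TPM in the tumors, 105, 102 and 92.9 TPM in the Brca2-mut controls and 103, 111 and 107 TPM in the Trp53-mut controls. Its groups did not overlap, yet the difference of 0.58 ± 0.11 stayed under the fold minimum at an adjusted p of 0.000616. Hist2h2aa2, of the chromosome 3 cluster, differed by -0.80 ± 0.23 at an adjusted p of 0.0103 and was the most negative of the 64 genes in this comparison. It shares all of its 31-base words with another annotated transcript.

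H2B genes pair with H2A in the histone dimer, and 11 of the 16 tested rose. The most abundant of them were level. Hist3h2ba was listed at 196, 288 and 226 TPM in the tumors, 222, 220 and 209 TPM in the Brca2-mut controls and 269, 219 and 208 TPM in the Trp53-mut controls, with a difference of 0.06 ± 0.12 at an adjusted p of 0.661. Hist1h2bc was listed at 182, 102 and 53.7 TPM in the tumors, 175, 152 and 176 TPM in the Brca2-mut controls and 125, 113 and 106 TPM in the Trp53-mut controls, and the tumors alone spanned a wider range than the controls. Its difference was -0.46 ± 0.32 at an adjusted p of 0.221. Hist1h2bk, in contrast, was listed at 16.1, 16.9 and 34.0 TPM in the tumors, 0, 0.347 and 0 TPM in the Brca2-mut controls and 0, 1.87 and 0 TPM in the Trp53-mut controls. It rose by 4.14 ± 0.37 at an adjusted p of 2.99e-06.

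H3 genes encode the histone whose tail carries many of the known regulatory marks, and 8 of the 9 tested rose. Hist1h3c was listed at 44.0, 31.3 and 66.0 TPM in the tumors, 0, 0 and 0.271 TPM in the Brca2-mut controls and 0.298, 0.858 and 0.600 TPM in the Trp53-mut controls, a rise of 5.14 ± 0.26 at an adjusted p of 6.29e-08. Hist1h3h was listed at 14.4, 8.97 and 55.4 TPM in the tumors, 0, 0 and 1.89 TPM in the Brca2-mut controls and 0.427, 0.380 and 0.481 TPM in the Trp53-mut controls, a rise of 3.85 ± 0.51 at an adjusted p of 5.71e-05. The tumor of GB370 was the highest for both. Hist2h3c1 was the H3 gene that did not rise. It was listed at 24.1, 12.3 and 6.89 TPM in the tumors, 26.5, 18.5 and 21.5 TPM in the Brca2-mut controls and 22.4, 25 and 18.5 TPM in the Trp53-mut controls, a difference of -0.73 ± 0.29 at an adjusted p of 0.0456. Without the tumor of GB344 it was called lower, at -1.16. This gene, too, shares all of its 31-base words with another annotated transcript.

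H4 genes encode the most conserved core histone, and 5 of the 12 tested rose. Hist1h4i was listed at 180, 89.0 and 85.9 TPM in the tumors, 17.3, 16.8 and 28.1 TPM in the Brca2-mut controls and 11.7, 19.1 and 24.9 TPM in the Trp53-mut controls. It rose by 2.49 ± 0.29 at an adjusted p of 2.33e-05, and with Hist1h2ao it was the other gene to rise among the 10 with a control mean of at least 10 TPM. Hist1h4b was listed at 10.8, 8.52 and 15.2 TPM in the tumors, 0.461, 0.327 and 0 TPM in the Brca2-mut controls and 0, 0 and 0.393 TPM in the Trp53-mut controls, a rise of 3.37 ± 0.21 at an adjusted p of 1.99e-07. Hist1h4h was listed at 15.8, 10.2 and 16.4 TPM in the tumors, 23.0, 23.2 and 22.8 TPM in the Brca2-mut controls and 17.2, 11.3 and 9.49 TPM in the Trp53-mut controls. The tumors lay below the first control group and within the range of the second, and the pooled difference was -0.26 ± 0.30 at an adjusted p of 0.444.

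The rise was unequal across gene models. With no filter, 16 of the 21 genes whose model ends near the stem-loop were called higher, with a median log2 fold change of 2.41. Of the 20 genes with no stem-loop letters in their model and a value above 0, 12 were called higher, with a median of 1.64. Of the 21 whose model runs on past the stem-loop, 9 were called higher, with a median of 1.03. These groups also differed in their level in control tissue, where the median gene averaged 0.370, 1.24 and 2.74 TPM. Summed, the genes that end near the stem-loop went from 96.6 to 222 TPM in the controls to 2131 to 2439 TPM in the tumors, most of it Hist1h2ao, and those that run on from 430 to 499.5 TPM to 627 to 764 TPM. By control level, 25 of the 31 genes with a control mean under 1 TPM and a value above 0 were called higher, 10 of the 21 between 1 and 10 TPM, and 2 of the 10 at 10 TPM or more. A division by control mean uses values of the comparison itself, and the parts played by the gene model, the level and the assignment of reads were not tested. By share of 31-base words of their own, 7 of the 11 genes under 10%, 20 of the 27 between 10% and 50% and 10 of the 24 tested with at least 50% were called higher, so the rise was seen in each of these ranges.

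**Figure D3:**
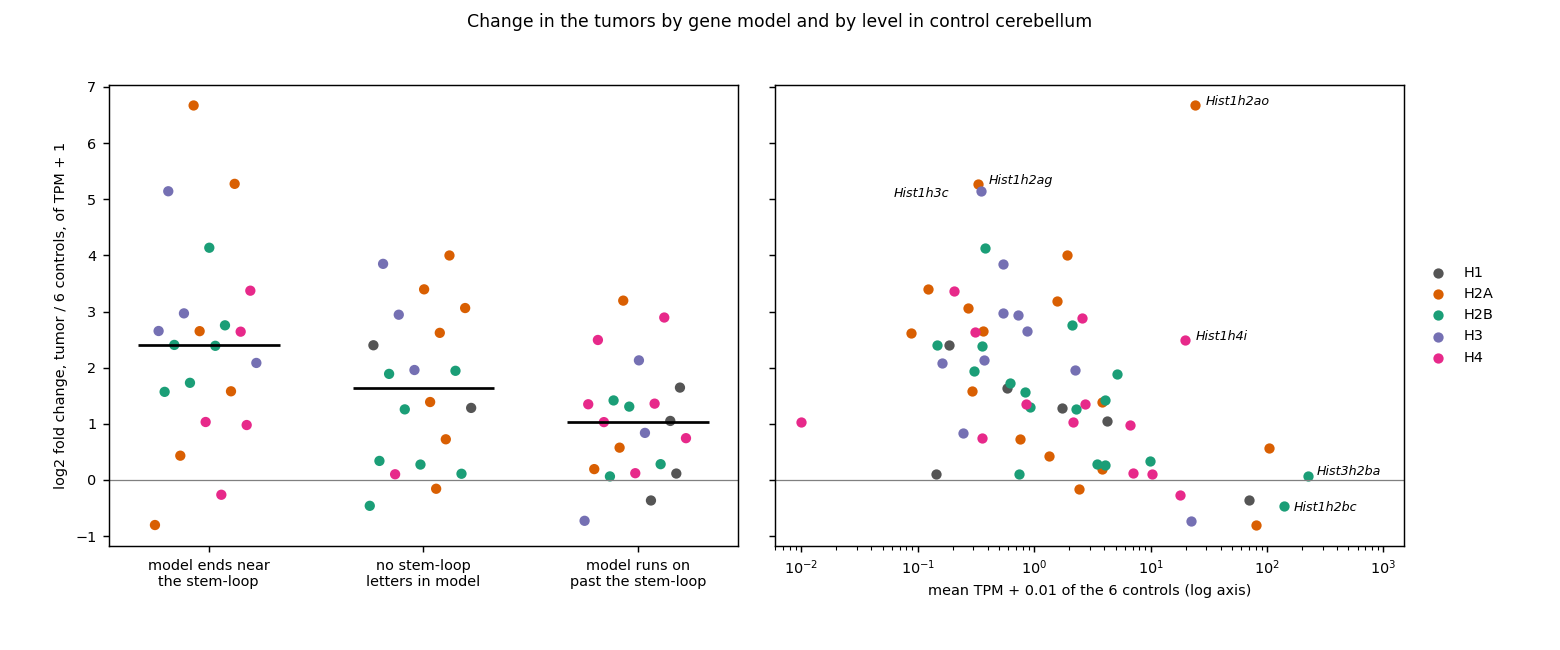
Log2 fold change of TPM + 1, tumors over the 6 controls, for the 62 genes with a value above 0 in these samples, by gene model (left, bars at the median) and against the mean TPM of the controls plus 0.01 on a log axis (right), colored by class. Most points at low control levels lie well above 0, whereas Hist3h2ba and Hist1h2bc at the right lie near or below it, with Hist1h2ao and Hist1h4i apart above.

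By position, the genes of chromosome 13 fall in a proximal block of 21 genes between chr13:21715711 and 22043658 and a distal block of 30 genes between chr13:23531044 and 23934913 (GRCm38), with Hist1h2al far from both. With no filter 16 of 21 genes in the first and 19 of 28 in the second were called higher, at medians of 2.49 and 1.49. In the chromosome 3 cluster 2 of 8 were called, at a median of 0.53, and in the chromosome 11 cluster 0 of 3, at 0.11. Other genes of chromosome 13 were counted in the main fit, which kept the filter, unlike the counts of histone genes just given. They had a median of -0.45, with 41 called higher and 164 lower of 572 tested. The 33 other genes tested between 20 and 25 Mb had a median of -0.04, with 5 called higher and 7 lower.

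An H2A and an H2B gene often start head to head a short distance apart, and 11 such pairs were found among the 64 genes, with 164 to 281 bp between their starts. In 9 pairs both partners were tested against the controls, and of these both were called higher in 5 pairs, 1 partner in 3 pairs and neither in 1. The other 2 pairs, of Hist3h2a and Hist3h2bb-ps and of Hist1h2aa and Hist1h2ba, held a partner that was not tested. Hist1h2ah and Hist1h2bk, whose shared promoter is printed above, rose by 3.4 and 4.14. Hist1h2ak and Hist1h2bn start 164 bp apart, and the first rose by 3.06 while the second differed by 0.27 ± 0.36. Hist1h2ac and Hist1h2bc were both level, at 0.19 and -0.46.

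The genes that serve histone supply are described as 4 lists, with each gene tested singly and no test of a list. Their counts stand beside 14.4% called higher and 21.5% called lower over all genes tested, with a median of -0.11. Of 18 genes of histone mRNA transcription and processing 5 rose, 1 fell and 12 were not called, with a median of 0.69. Slbp, which binds the stem-loop, was listed at 85.9, 93.5 and 97.3 TPM in the tumors and 37.7 to 45.7 TPM in the controls, and rose by 1.14 ± 0.08 at an adjusted p of 5.32e-07. Cdk2, the kinase that activates Npat, rose by 3.68, Eri1, an exonuclease that trims histone mRNA ends, by 1.51, and Ncbp1, of the cap-binding complex, by 1.21. Npat itself, the coactivator at histone loci, was listed at 11.6 to 15.0 TPM in the tumors and 10 to 12.5 TPM in the controls, a difference of 0.17 ± 0.12 at an adjusted p of 0.209. Lsm11, a subunit of the U7 particle that cuts histone pre-mRNA, was listed at 8.95, 7.03 and 7.90 TPM in the tumors and 23.2 to 30.0 TPM in the controls and fell by 1.66 on the log2 scale.

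Of 12 replication-independent variants tested, 9 rose, 1 fell and 2 were not called, with a median of 1.60. Cenpa, the H3 variant of centromeres, was listed at 117, 116 and 137 TPM in the tumors and 0.850 to 8.86 TPM in the controls, with the highest control again GB512. H2afz, which encodes H2A.Z, rose by 2.23 ± 0.09, from 315 to 399 TPM in the controls to 1466 to 1624 TPM in the tumors, and H1fx, a linker variant, by 3.21. H2afx, the variant phosphorylated at DNA breaks, was listed at 237, 214 and 200.5 TPM in the tumors and 46.5 to 63.0 TPM in the controls, a rise of 2.05 ± 0.10. H2afy3 fell by 1.12, from 2.67 to 3.53 TPM to 0.504 to 1.35 TPM.

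Histone chaperones, which carry new histones to chromatin, rose in 12 of 21 cases with none lower and a median of 1.27. Chaf1b, of the chromatin assembly factor CAF-1, rose by 4.69, Mms22l by 3.66, Asf1b by 3.45 and Nasp by 3.17, the latter pair being chaperones of H3 and H4. All 21 S phase genes rose, with a median of 3.80, and their sum was 2397 to 3065 TPM in the tumors and 202 to 330 TPM in the controls. Top2a rose by 6.71, Mki67, which encodes the Ki-67 antigen, by 6.06, Ccna2, which encodes cyclin A2, by 5.51 and Uhrf1, a maintenance methylation factor, by 5.45.

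**Figure D4:**
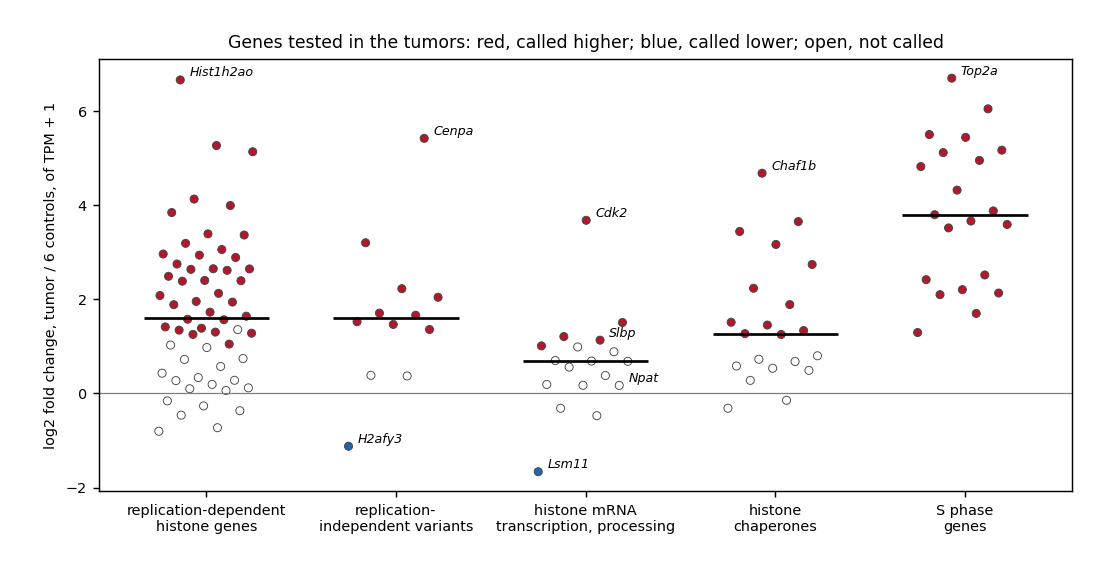
Log2 fold change of TPM + 1, tumors over the 6 controls, for the tested genes of each list (x axis), with a bar at the median, filled points for genes called higher or lower and open points for genes not called. All S phase genes lie above 1, and the histone genes spread from -0.80 to 6.67.

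The comparison of tumor with adjacent cerebellum of the same mice asks whether the genes also differ within an animal. The main fit left out the pairing by mouse, and a fit with the mouse as a block is given beside it. Of the 64 genes 51 were higher in the tumor than in the adjacent sample in all 3 mice, a pattern seen in 30.2% of the 15845 genes tested in this comparison. By limma 14 of the 60 histone genes tested were called higher and 0 lower, against 4.76% and 18.0% of all genes tested, with a median log2 fold change of 1.32 over the histone genes and -0.14 over all, which became 0.05 after median-of-ratios scaling and 0.13 after quantile normalization. With the mouse as a block 12 were called higher, 10 of them shared with the 14, where 4.42% of all genes were called higher. The 14 were Hist1h1a, Hist1h1b, Hist1h2af, Hist1h2bf, Hist1h2bg, Hist1h2bk, Hist1h2bm, Hist2h2bb, Hist1h3a, Hist1h3e, Hist1h3g, Hist1h3i, Hist1h4d and Hist1h4f. The count fell to between 3 and 14 when 1 sample was left out, being 3 without the tumor of GB370, 5 without the adjacent sample of GB359, 6 without the tumor of GB344, 7 without the tumor of GB359 and 10 without the adjacent sample of GB370.

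The genes with the largest tumor levels were mostly not among the 14, and their adjacent samples differed from each other. Hist1h2ao was listed at 939, 522 and 50.9 TPM in the adjacent samples of GB344, GB359 and GB370. The difference from the tumors was 2.73 ± 0.98 at an adjusted p of 0.0540, and without the adjacent sample of GB370 it was 1.48 and passed the threshold. Hist1h2ag was listed at 29.9, 17.4 and 1.0 TPM and Hist1h3c at 25.6, 7.59 and 1.76 TPM in the adjacent samples, with differences of 2.24 ± 0.98 and 2.42 ± 0.77 that were not called. In each of these genes the adjacent sample of GB344 was the highest and that of GB370 the lowest. Hist1h3i, by contrast, was listed at 1.19, 1.76 and 0.833 TPM in the adjacent samples against 11.1, 9.55 and 12.5 TPM in the tumors, a rise of 2.43 ± 0.22 at an adjusted p of 0.000317. Hist3h2ba was level in this comparison too, at 223, 253 and 201 TPM in the adjacent samples and a difference of 0.06 ± 0.17.

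Adjacent and control cerebellum were compared to ask whether tissue beside the tumor differs from tissue of mice without tumors. No histone gene was called by limma among the 45 tested, where 0.224% of 16091 genes were called higher and 0.0124% lower. An unadjusted p under 0.05 was found for 17 of the 45, against 34.5% of all genes tested, and a positive difference for 31, against 59.5%, both near the shares over all genes. The nearest to the threshold were Hist1h2ak, at 1.31 ± 0.20, and Hist1h3a, at 1.5 ± 0.23, both at an adjusted p of 0.0105. Without the adjacent sample of GB370, 10 histone genes were called higher, where 3.51% of all genes tested were called higher. These 10 were Hist1h2ao at 5.19 ± 0.66, Hist1h2ag at 4.23 ± 0.31, Hist1h3c at 3.54 ± 0.40, Hist1h3h, Hist1h2bk, Hist1h2ai, Hist1h2ae, Hist1h2bj, Hist1h3a and Hist1h2ak. The sample of GB370 was singled out because its progenitor and tumor markers were nearest the controls, so leaving it out kept the higher samples. With the adjacent sample of GB344 or of GB359 left out instead, 0 histone genes were called higher.

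Counted mouse by mouse, 37 of the 64 genes in the adjacent sample of GB344 exceeded all 6 controls, 24 in that of GB359 and 8 in that of GB370, where 37.4%, 33% and 27.8% of the genes tested did so. The S phase genes summed to 1107, 884 and 292 TPM in these samples against 202 to 330 TPM in the controls, and the 8 progenitor and tumor markers to 682, 636 and 152 TPM against 110 to 130 TPM. The counts of histone genes, the S phase genes and these markers thus shared 1 order of mice, which the shares over all genes tested followed too. The class sums of H2A, H2B, H3 and H4 had this order in the adjacent samples. The H1 sums, at 58.2, 71.9 and 57.7 TPM in GB344, GB359 and GB370, did not. The part that tumor cells in the adjacent tissue had in this order was not tested.

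**Figure D5:**
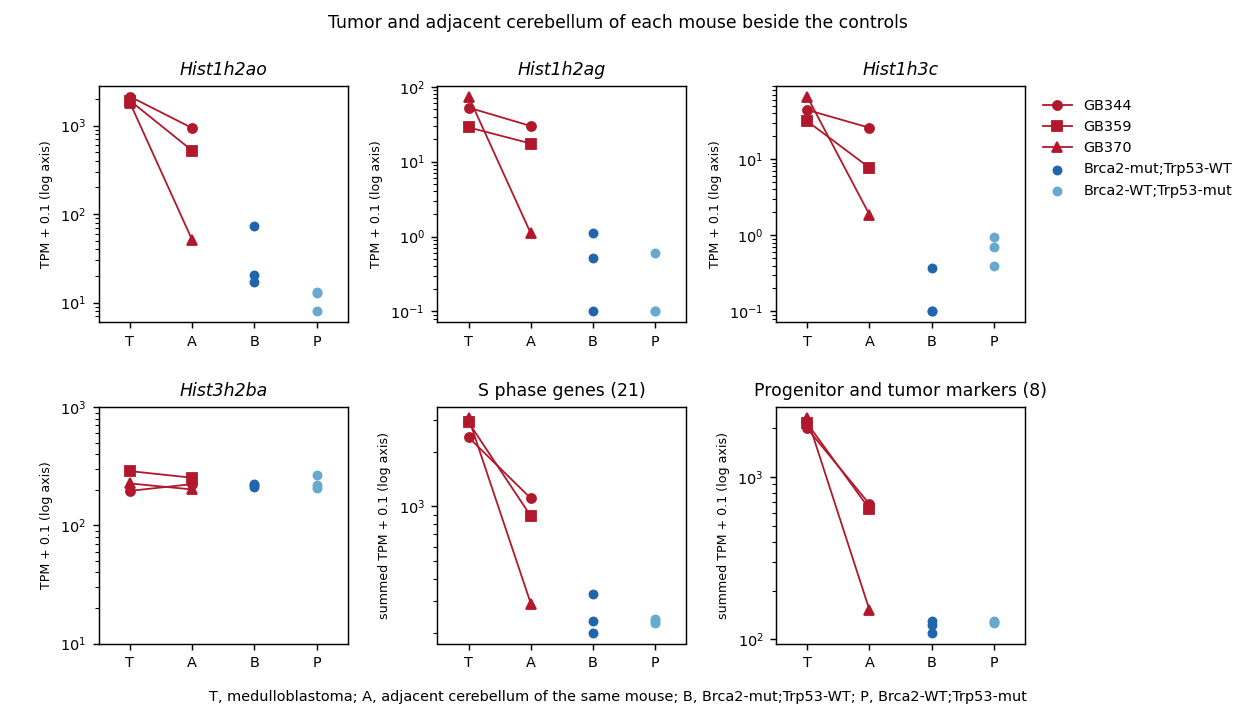
TPM, or summed TPM for the lists, plus 0.1 on log y axes for tumor (T) and adjacent cerebellum (A) joined by mouse, beside Brca2-mut (B) and Trp53-mut (P) controls. For Hist1h2ao, Hist1h2ag, Hist1h3c and both lists the adjacent samples of GB344 and GB359 lie above the controls, and below the tumors except that Hist1h2ag in the adjacent sample of GB344 is level with the lowest tumor, and that of GB370 is the lowest of the 3, while Hist3h2ba is level in all groups.

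The control groups were compared to ask whether the genes differ between the Brca2-mut and Trp53-mut genotypes in the absence of a tumor. By limma no histone gene of the 31 tested was called, where 0.0578% of 15575 genes were called in either direction, and 8 of the 31 had an unadjusted p under 0.05, against 20.1% of all genes tested. All 8 were higher in the Brca2-mut controls, where 4.78% of all genes had such a p and were higher. They included Hist1h2bn, at 4.90, 7.13 and 5.41 TPM in the Brca2-mut controls and 2.28, 2.08 and 2.31 TPM in the Trp53-mut controls, with a difference of 1.07 ± 0.15 and an adjusted p of 0.0425. Hist1h4c was listed at 5.11, 5.06 and 4.63 TPM against 0, 1.64 and 0 TPM. Hist1h2bc, Hist1h4h and Hist1h1c, described above, were each higher in every Brca2-mut control than in every Trp53-mut control, with differences of 0.54 to 0.85. Choroid plexus markers summed to 867, 17.4 and 21.4 TPM in the Brca2-mut controls and 3929 to 5141 TPM in the Trp53-mut controls, and Purkinje cell markers to 7710 to 9308 TPM and 5596 to 6114 TPM, and the part of tissue makeup in these differences was not tested.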

How the data were processed

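Gene-level TPM values were used as deposited in 1 table of 12 samples, with no sample column left out. According to the study's methods, the authors made the TPM values with Salmon 0.8.1 against UCSC knownGene transcripts of mm10 and summed them to genes with tximport, and tested counts, which are not analysed here, with DESeq2. Each column sums to 999793 to 999876 TPM, so depth is unknown. Mir6236 takes 4.25% to 11.5% of the TPM.

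Differences were tested with limma 3.58.1 in R 4.3.3 (lmFit, eBayes with trend) on log2(TPM + 1), on genes that reached 1 TPM in 3 or more of the samples compared, with Benjamini-Hochberg adjustment over all genes tested. Only the groups compared entered a fit. A gene was called when its adjusted p lay below 0.01 and its log2 value changed by 1 or more. The script was tested on simulated data with 100 genes per comparison changed by a log2 value of 2. It called 97 of them in tumor against control and 62 in tumor against adjacent cerebellum. For adjacent against control it called 95, and between the control genotypes 89. The changed genes were drawn from those with a mean log2(TPM + 1) above 2, so these rates do not cover genes at lower levels. The simulated samples held no pairing by mouse. Tumor and adjacent samples came from the same animals, and their deviations from the group means correlated at 0.249, 0.176 and 0.152. The main fit of these groups did not use this pairing, and the mouse as a block was an alternative.

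Values in each tumor and control were given for the 2 most abundant members of each class and the 8 largest rises. A fold change, values or a range were given for the 4 largest changes each way in every pathway list. The same holds for Slbp, Npat and H2afx. Other genes named were chosen after their values were seen. The members and lists were chosen with earlier results of these data known. All 64 genes were matched to RefSeq (GRCm38.p6) by gene identifier, under which RefSeq lists newer symbols. Gene models, stem-loops and shared words of 31 bases were read from GENCODE vM21 (GRCm38), and promoters from RefSeq. Alternatives covered the pseudocount, the filter, the scaling, the threshold, the groups fitted together and each sample left out.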

Additional observations from a re-analysis of the deposited data

Results flagged for a closer look

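Among the 16 members whose values are given in each tumor and control, 6 had 1 of the 6 control cerebella far from the others. Such a control had a gap over the range above 0.625. Chance alone flags about 1 in 20 groups of normally distributed values, and the 6 controls pool 2 genotypes. That rate does not carry over to TPM values at or near 0. Where every other control is at 0, as for Hist1h2ah, any value above 0 is flagged. Some of the 16 members were also picked as the largest rises over these same controls. The 6 flagged members can therefore not be set against 1 in 20. GB512, a Brca2-mut control, was the high sample for Hist1h2ao, at 73.4 TPM with the nearest control at 20.4 TPM, for Hist1h3h, at 1.89 TPM with the nearest at 0.481 TPM, and for Hist1h2ah, at 0.668 TPM with every other control at 0. Hist1h2ai was high in GB361, a Brca2-mut control, at 4.76 TPM with the nearest at 2.05 TPM. Hist1h2bk was high in GB519, at 1.87 TPM with the nearest at 0.347 TPM, and Hist3h2ba in GB517, at 269 TPM with the nearest at 222 TPM, both of them Trp53-mut controls.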

How the results depend on the processing

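TPM keeps no depth, so low values have no known counting error, and 3 mice a group limit what can be called. In the tumor against the controls, the count of histone genes called higher stayed within 1.5 times of 38 under all alternatives run but 1, the filter of 5 TPM, which left 38 genes to test and 24 called. It ran from 36 to 38 with 1 sample left out. The count called lower was 0 in all but 2 alternatives, at 1 without the tumor of GB344, where leaving out 1 sample gave 0 to 1, and 2 at an adjusted p under 0.05 with no fold minimum. The tumor against adjacent count of 14 was less stable. It was 24 with all 4 groups in 1 fit and after quantile normalization, 9 with a filter of 5 TPM, 5 with no filter, 6 and 8 with pseudocounts of 0.01 and 0.1, 30 at an adjusted p under 0.05 with no fold minimum, and 3 to 14 with 1 sample left out, of which the tumor of GB370 gave the 3. With the mouse as a replicate block it was 12, and the block changed the call of Hist1h2bk, Hist1h4d, Hist2h2bb and Hist1h3a, which were lost, and of Hist1h4i and Hist1h2bp, which were gained. In the adjacent against control comparison, the count higher of 0 became 2 after median-of-ratios scaling and after rescaling without Mir6236, 1 after quantile normalization, 7 at an adjusted p under 0.05 with no fold minimum, where 1 was lower, and 0 to 10 with 1 sample left out, the 10 being without GB370. Between the control genotypes, 0 became 1 at an adjusted p under 0.05 with no fold minimum and 0 to 1 with 1 sample left out, the 1 being without GB519. The mean tumor sum of H2A was 387.5 TPM without Hist1h2ao and 2539 TPM after median-of-ratios scaling, that of H2B 522.4 TPM after this scaling, and that of all 64 genes 1321 and 3550 TPM. The cause of these changes was not tested.

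No called difference changed sign among the 16 histone genes whose values are given in each tumor and control. Differences near 0 that were not called did. In the tumor against the controls, Hist1h4h became 0.16 with the Trp53-mut controls alone, and Hist3h2ba ran from -0.087 to 0.19 with 1 sample left out. In the tumor against adjacent cerebellum, Hist1h1c became 0.15 and Hist2h3c1 0.14 after median-of-ratios scaling, and 0.16 and 0.25 after quantile normalization. With 1 sample left out, Hist1h1c ran from -0.23 to 0.14, Hist3h2ba from -0.10 to 0.18, Hist1h2bc from -0.41 to 0.46 and Hist2h3c1 from -0.50 to 0.34. In adjacent against control cerebellum, median-of-ratios scaling gave Hist1h1e -0.052, Hist3h2a -0.058 and Hist3h2ba -0.089, rescaling without Mir6236 gave Hist3h2ba -0.022, and quantile normalization gave Hist1h1e -0.18. With the Brca2-mut controls alone Hist1h1e became -0.11, and with the Trp53-mut controls alone Hist3h2a became -0.008 and Hist3h2ba -0.036. With 1 sample left out, Hist1h1e ran from -0.065 to 0.09, Hist3h2a from -0.18 to 0.22 and Hist3h2ba from -0.076 to 0.087. Between the control genotypes, Hist3h2a became 0.02 and Hist3h2ba 0.027 after median-of-ratios scaling, and Hist1h2ai -0.086 and -0.049 with pseudocounts of 0.01 and 0.1. With 1 sample left out, Hist3h2ba ran from -0.16 to 0.023, Hist2h3c1 from -0.12 to 0.13, Hist1h4i from -0.11 to 0.40 and Hist1h2ai from -0.45 to 0.52.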

Other observations

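Of the 64 genes, 19 were higher in GB512 than in the other 5 controls, whereas 6 to 11 were highest in each of the others. Of all genes tested in the controls, 13% were highest in GB512. The same sample was the highest control for Mki67, at 5.63 TPM against 0.180 to 0.343 TPM, for Ccna2, at 11.2 TPM against 1.5 to 2.75 TPM, and for Uhrf1, at 5.52 TPM against 0.849 to 1.21 TPM. Its 8 progenitor and tumor markers summed to 122 TPM, inside the range of the other controls. The cause was not tested. Without GB512, 37 histone genes were called higher in the tumors.

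The 3 tumors did not rank alike across the genes. Hist1h2bc and Hist2h3c1 were highest in GB344 and lowest in GB370, at 182 and 53.7 TPM and at 24.1 and 6.89 TPM, whereas Hist1h3h, Hist1h2ai and Hist1h2ag were highest in GB370, at 55.4, 78.2 and 74.1 TPM. Hist1h2ao differed little among them, at 1818 to 2133 TPM.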
